A study of Mus musculus with 15 samples.

Results

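The genes described here are 6 keratins of the mouse uterus after estrogen: the hair keratins Krt86 and Krt87 and the simple epithelial keratins Krt7, Krt8, Krt18 and Krt19. They were taken by gene name, current or older, from the non-control probes of the arrays, which gave 8 probes of 41121 and 6 of 27648 gene names. They were chosen by their normalized levels in all 5 groups, so their values and differences are a description without a test. Uteri came from ovariectomized CD-1 mice injected with saline vehicle, with 250 ng of E2 or with 250 ng of E3. E2 and E3 are read here in their usual sense of estradiol and estriol. The D ring of estriol bears a further hydroxyl. Each treated uterus was collected 2 or 24 h after the injection, and vehicle and each of the 4 combinations of estrogen and time had 3 samples, each on its own one-colour Agilent array. The collection time of the vehicle group is not given in the labels. They also do not say whether the 3 samples of a group were separate animals or pools, so an adjusted p measures only the spread between these samples.

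Keratins form the intermediate filaments of epithelial cells, and every filament pairs a type I with a type II protein. Simple epithelia, such as the lining and glands of the uterus, pair type II Krt8 and Krt7 with type I Krt18 and Krt19. Hair keratins such as Krt86 and Krt87, both type II, are known from the cortex of the hair shaft, where disulfide bonds link them into a hard fibre. The type II genes lie together in a cluster on chromosome 15, and Krt18 sits at its edge as the type I neighbour of Krt8.

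Levels are log2 signals minus the log2 of the 75th percentile of the same array, so 0 is the level of a probe at that percentile. A level is compared between groups within a probe, never between probes. The 75th percentile itself ran from 1053 to 1854 signal units, and 63.1% to 80.0% of the probes of an array were well above background. All 8 keratin probes were well above background on all 15 arrays, and none was saturated. Markers of uterine epithelium (Cdh1, Epcam), stroma (Pdgfra, Dcn), smooth muscle (Myh11, Acta2), mesothelium (Msln, Upk3b) and endothelium (Pecam1, Cdh5) were well above background on all 15 arrays. Replicate arrays correlated at 0.986 to 0.992 in the other 4 groups but only at 0.962 to 0.974 among all 3 E3 24 h arrays. Among these, the array labelled E3 24 h replicate 2 had hair keratin levels unlike the other 2, and it correlated with the E2 24 h arrays at 0.972 to 0.975. The E2 24 h arrays correlated with each other at 0.987 to 0.988. E3 24 h replicate 2 also had the lowest share of probes well above background, 63.1%, and another slide and scan day than replicates 1 and 3. Whether it matches its label was not tested. Differences from vehicle at 24 h of E3 are therefore given with and without it for the 6 keratins and for the genes called there. The 3 vehicle arrays shared 1 slide that held no other sample, so a slide effect and the treatment cannot be fully told apart in comparisons with vehicle.

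The probes of Krt86 and Krt87 are shown because they overlap in sequence, which bears on every value of both genes. Capitals mark the run of 20 bases that the probes share, at positions 41 to 60 of the Krt86 probe and 1 to 20 of the Krt87 probe, counted from the 5′ end. The Krt86 probe lies at chr15:101463017-101463076 on the plus strand of build mm7, and the Krt87 probe at chr15:101419766-101419825 on the minus strand, about 43.2 kb away.
Krt86: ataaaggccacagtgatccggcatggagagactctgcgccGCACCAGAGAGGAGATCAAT
Krt87: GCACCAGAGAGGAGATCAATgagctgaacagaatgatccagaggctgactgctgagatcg
The array's own list of targets for the Krt87 probe names the Krt86 transcript as well as that of Krt87. Signals of these close paralogs are therefore uncertain as to the gene they come from, and the probes cannot be taken as independent measurements.

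Krt86 went from a low level, still well above background, in vehicle uteri to well above the 75th percentile 2 h after either estrogen. Its levels were -4.70, -5.39 and -5.14 in the vehicle samples. They were 2.32, 2.10 and 2.53 at 2 h of E2. They were 2.31, 2.49 and 2.50 at 2 h of E3. The 6 treated samples of that time lay between 2.10 and 2.53, and the highest vehicle sample lay at -4.70. The levels at 24 h of E2 were -0.33, -0.98 and -0.68, below all 2 h samples and above all vehicle samples. Those at 24 h of E3 were -4.63, 0.26 and -5.21. Replicates 1 and 3 lay among or next to the vehicle samples, and replicate 2 lay above the E2 24 h samples.

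The Krt87 probe gave nearly the same picture. Its levels were -3.97, -4.81 and -4.92 with vehicle, 2.19, 2.33 and 2.76 at 2 h of E2, and 2.35, 2.59 and 2.64 at 2 h of E3. At 24 h they were -0.16, -0.77 and -0.53 with E2, and -4.78, 0.40 and -4.98 in the E3 samples. The level of the Krt86 probe minus that of the Krt87 probe stayed between -0.73 and 0.15 over the 15 arrays, and their correlation across arrays was 0.998. Points of this correlation share the arrays, the overlapping sequence and the groups.

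**Figure D1:**
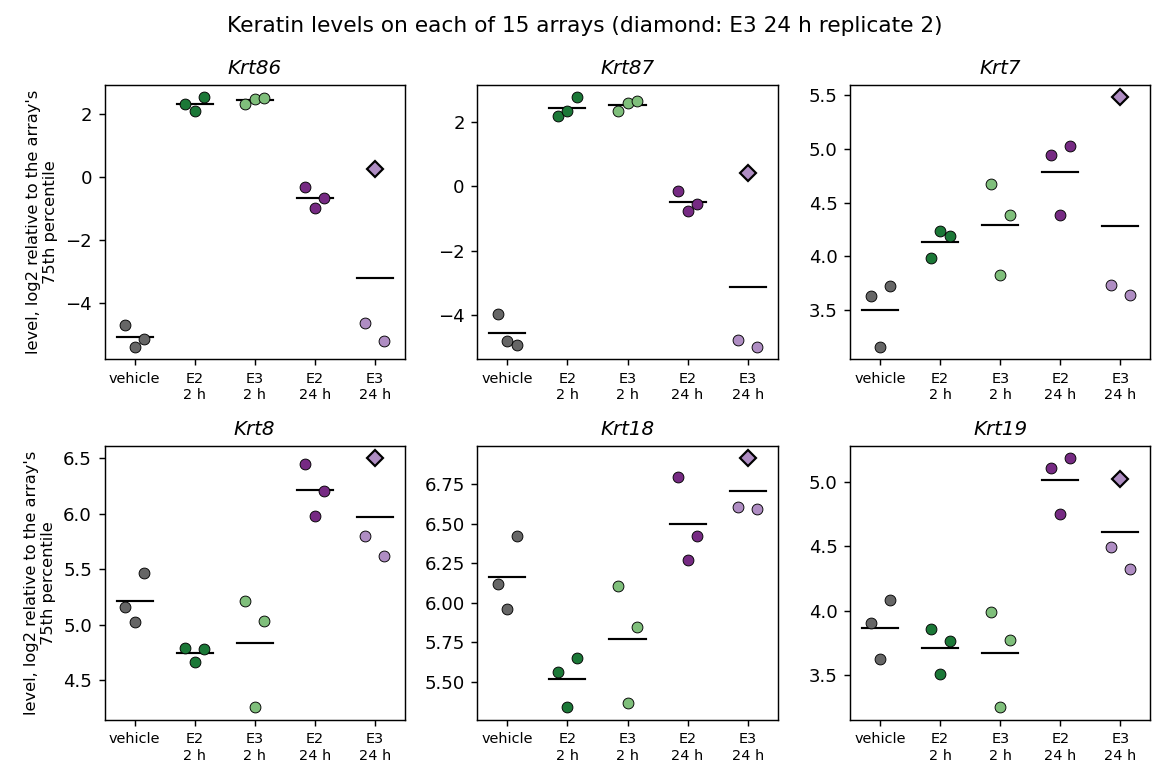
Level of each keratin on each array, as log2 relative to the 75th percentile of the array, by group; points are arrays, lines are means of 3 arrays and the diamond is E3 24 h replicate 2. Krt86 and Krt87 sit near -5 with vehicle and above 2 at 2 h of either estrogen, while at 24 h of E3 only replicate 2 is near 0; the vertical scale differs between panels.

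As differences from vehicle, Krt86 was 7.39 ± 1.01 (SE) log2 units higher at 2 h of E2, a ratio of 168, with a 95% interval of 5.20 to 9.59. At 2 h of E3 it was 7.51 ± 1.01 higher, a ratio of 182. The difference at 24 h of E2 was 4.41 ± 1.01, a ratio of 21.3. For Krt87 the differences were 6.99 ± 1.03 and 7.09 ± 1.03 at 2 h and 4.08 ± 1.03 at 24 h of E2. The standard errors come from a spread shared by all groups, and most of that spread came from E3 24 h replicate 2. Without that array the standard error of Krt86 at 2 h fell to 0.22 and the interval of the E2 difference narrowed to 6.91 to 7.88. Tissue was measured in bulk, so more cells with these transcripts and more transcript per cell cannot be told apart.

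Between 2 and 24 h of E2 the Krt86 level was lower at 24 h by 2.98 ± 1.01 log2 units, a ratio of 7.90, and the Krt87 level by 2.91 ± 1.03, a ratio of 7.52. In each case all 3 samples of 24 h lay below all 3 of 2 h. With E3 the Krt86 level dropped by 5.63 ± 1.01 on the log2 scale from 2 to 24 h, and the difference was -7.36 ± 0.25 without replicate 2. For Krt87 these values were -5.65 ± 1.03 and -7.41 ± 0.28.

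The difference of Krt86 from vehicle at 24 h of E3 was 1.88 ± 1.01 with all 3 samples and 0.15 ± 0.25 without replicate 2, with intervals of -0.31 to 4.08 and -0.39 to 0.70. For Krt87 it was 1.45 ± 1.03 and -0.31 ± 0.28, so even its sign depended on that array. Replicate 2 was also the highest of all 15 arrays in the summed level of 12 epithelial markers, which was 83.7 times the 75th percentile there against 43.5 and 39.6 in replicates 1 and 3. That sum ranged from 34.3 to 40.6 in the vehicle samples and from 45.4 to 67.2 in the E2 24 h samples. Whether the epithelial content of that sample has a part in its keratin levels was not tested.

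Krt7, the type II partner keratin of glandular epithelium, was higher in every sample of E2 and of E3 at 2 h than in any vehicle sample. Its levels were 3.63, 3.17 and 3.72 with vehicle, 3.98, 4.23 and 4.19 at 2 h of E2, and 4.67, 3.83 and 4.39 at 2 h of E3. They were 4.94, 4.38 and 5.03 at 24 h of E2. The E3 samples at 24 h had 3.74, 5.47 and 3.65, with replicates 1 and 3 next to or among the vehicle samples and replicate 2 above all other arrays. The differences from vehicle were 0.63 ± 0.41 and 0.79 ± 0.41 log2 units at 2 h of E2 and E3. The difference at 24 h of E2 was 1.27 ± 0.41, a ratio of 2.42. With E3 at 24 h it was 0.78 ± 0.41, and 0.18 ± 0.26 without replicate 2. The probe that stands for Krt7 lies at chr15:101413898-101413957 (plus strand, mm7), and a second probe at chr15:101409444-101409503 gave 0.66, 0.76, 1.18 and 0.84 in the same 4 comparisons.

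Krt8 is the type II keratin that all simple epithelia make. It was lower than vehicle in all 3 samples at 2 h of E2 and higher than vehicle in all 3 at 24 h. Its levels were 5.16, 5.02 and 5.46 with vehicle and 4.79, 4.66 and 4.78 at 2 h of E2. At 2 h of E3 they were 5.22, 4.26 and 5.04, overlapping the vehicle samples. At 24 h they were 6.45, 5.98 and 6.20 with E2, and 5.80, 6.50 and 5.62 with E3. All 6 samples of 24 h lay above every other sample. The differences from vehicle were -0.47 ± 0.26 and -0.38 ± 0.26 at 2 h of E2 and E3, and 1.00 ± 0.26 and 0.76 ± 0.26 at 24 h, the latter 0.49 ± 0.25 without replicate 2. The median difference over all genes tested was -0.14 and -0.16 at 2 h of E2 and E3. From 2 to 24 h Krt8 was higher by 1.46 ± 0.26 with E2, a ratio of 2.76, and by 1.13 ± 0.26 with E3, or 0.87 ± 0.25 without replicate 2. Both Krt8 probes, at chr15:101983072-101983131 and chr15:101982940-101982999 (minus strand, mm7), gave these directions, the second with -0.41 and -0.26 at 2 h and 0.99 and 0.75 at 24 h.

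Krt18, the type I partner of Krt8 (probe at chr15:102018067-102018126, plus strand, mm7), had levels of 6.12, 5.96 and 6.42 with vehicle. At 2 h they were 5.56, 5.34 and 5.65 with E2, all below vehicle, and 6.11, 5.37 and 5.85 with E3. At 24 h they were 6.80, 6.27 and 6.42 with E2, overlapping vehicle, and 6.61, 6.91 and 6.60 with E3, all above vehicle. The differences from vehicle were -0.65 ± 0.20 and -0.39 ± 0.20 at 2 h, and 0.33 ± 0.20 and 0.54 ± 0.20 at 24 h of E2 and E3, the latter 0.43 ± 0.22 without replicate 2. With quantile normalization the E2 24 h difference turned to -0.10 and the E3 one became 0.04. From 2 to 24 h the level was higher by 0.98 ± 0.20 with E2 and by 0.93 ± 0.20 with E3, or 0.83 ± 0.22 without replicate 2.

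Krt19, a small type I keratin of ducts and glands, is the only one of the 6 outside the chromosome 15 cluster (probe at chr11:100250117-100250176, minus strand, mm7). Its levels were 3.90, 3.62 and 4.08 with vehicle, 3.86, 3.51 and 3.77 at 2 h of E2, and 3.99, 3.25 and 3.77 at 2 h of E3. The 2 h groups overlapped vehicle, and their differences of -0.16 ± 0.23 and -0.20 ± 0.23 were close to the median of all genes and turned to 0.02 and 0.04 when arrays were scaled to their medians. At 24 h the levels were 5.11, 4.75 and 5.18 with E2 and 4.50, 5.02 and 4.32 with E3, all above vehicle. The differences were 1.15 ± 0.23 with E2, a ratio of 2.21, and 0.74 ± 0.23 with E3, or 0.54 ± 0.22 without replicate 2.

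Ordered by mean level, Krt86 and Krt87 ran from E3 2 h and E2 2 h, which overlapped, through E2 24 h and E3 24 h to vehicle. The lowest E2 2 h sample lay above the highest E2 24 h sample by 2.43 for Krt86 and 2.34 for Krt87. The E2 24 h and E3 24 h groups overlapped through E3 24 h replicate 2, and E3 24 h and vehicle through E3 24 h replicates 1 and 3. For Krt8 and Krt19 the E2 24 h and E3 24 h groups came first and overlapped, and neither overlapped vehicle or the 2 h groups. For Krt7 only the vehicle group was separate from its neighbour. For Krt18 every group overlapped the next in order. Groups without overlap were common among all genes tested. Against vehicle, 55.5% and 55.6% of all genes did not overlap at 2 h of E2 and E3, and 56.1% and 36.1% at 24 h. Between 2 and 24 h it was 62.2% with E2 and 54.2% with E3, and between the estrogens at 24 h 28.6%. The summed level of 12 epithelial markers was 34.3 to 40.6 with vehicle, 39.3 to 44.4 at 2 h of E2, 39.9 to 55.9 at 2 h of E3, 45.4 to 67.2 at 24 h of E2 and 39.6 to 83.7 at 24 h of E3. All 3 samples at 24 h of E2 lay above every vehicle and E2 2 h sample in this sum, as they did for Krt7, Krt8 and Krt19, while the E3 24 h samples overlapped vehicle. The sums of stromal and smooth muscle markers at 24 h of E2 also lay above every vehicle and E2 2 h sample. They were 699 to 777 and 558 to 911, against 407 to 457 and 375 to 556 with vehicle. Unlike the epithelial sum, they did not overlap vehicle at 24 h of E3 either, at 719 to 854 and 715 to 876. Of 10 stromal markers, 5 rose and 3 fell at 24 h of E2. Of 8 smooth muscle markers, 4 rose and none fell, where 21.1% of all genes were called higher and 22.3% lower. The sums of mesothelial and endothelial markers were lower at 24 h of E2 than with vehicle. Of the 12 epithelial markers, 2 rose at 2 h of E2 and 4 at 2 h of E3, and none fell, where 15.5% and 16.6% of all genes were called higher. At 24 h of E2, 2 rose and none fell, where 21.1% of all genes were called higher. With limma none passed at 24 h of E3, where 9.7% of all genes were called higher and 3 of the 12 had an unadjusted p under 0.05. The part of epithelial content in the levels of the simple keratins was not tested.

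**Figure D2:**
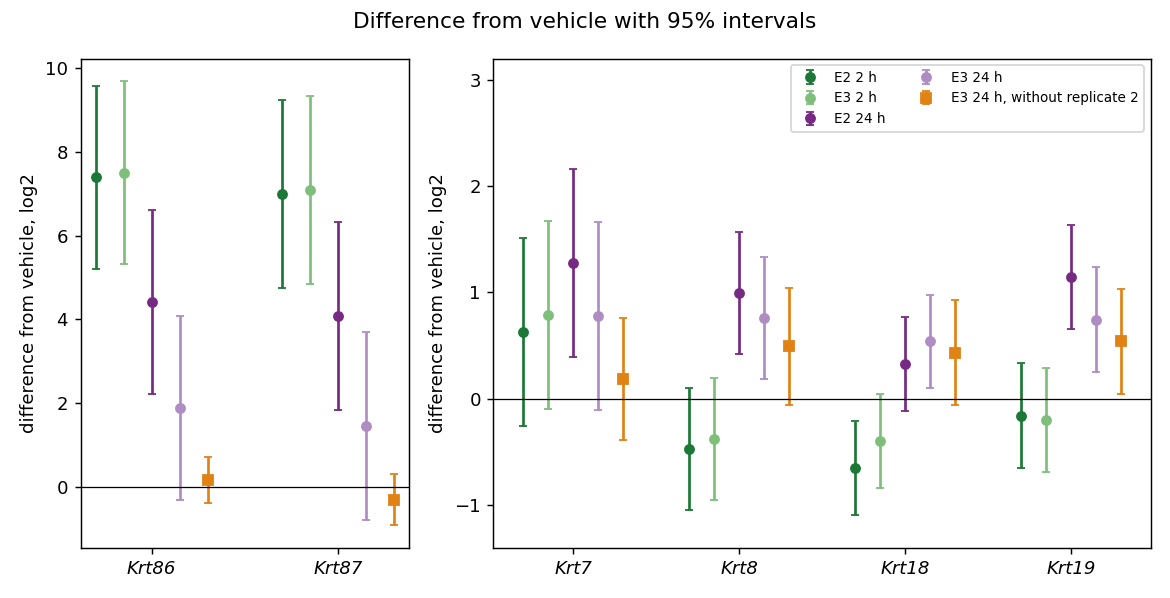
Difference from vehicle in log2 units with its 95% interval for each keratin, for E2 and E3 at 2 h and 24 h (circles) and for E3 at 24 h without replicate 2 (squares). Krt86 and Krt87 lie about 7 log2 units above vehicle at 2 h, and their E3 24 h values fall to 0.15 and -0.31 without replicate 2; the left and right panels have different scales.

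By the threshold used for all genes, an adjusted p under 0.05 with limma, 2 of the 6 keratins were higher and 1 lower at 2 h of E2, where 38.7% of all genes were called, 15.5% higher and 23.1% lower. At 2 h of E3, 2 were higher and none lower, beside 40.2% of all genes (16.6% higher and 23.6% lower). With E2 at 24 h, 5 were higher and none lower, beside 43.4% (21.1% higher and 22.3% lower). With E3 at 24 h, 1 was higher and none lower, beside 20.4% (9.7% higher and 10.7% lower). Without replicate 2 none was called, and the share of all genes called in that fit is not given. Between 2 and 24 h of E2, 3 were higher and 2 lower, beside 52.3% (30.6% higher and 21.8% lower). From 2 to 24 h of E3, 3 were also higher and 2 lower, beside 49.7% (29.9% higher and 19.8% lower). The choice of these genes used the same levels, so nothing is read from these counts.

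E2 and E3 at the same dose gave levels at 2 h that overlapped between the groups for all 6 keratins. The difference E2 minus E3 was -0.12 for Krt86, -0.10 for Krt87, -0.16 for Krt7, -0.09 for Krt8, -0.26 for Krt18 and 0.04 for Krt19. Overlap was common in this comparison, where only 12.7% of all genes did not overlap. Without E3 24 h replicate 2 in the shared spread, the 95% interval of the Krt86 difference was -0.60 to 0.37, which leaves room for a ratio in either direction. Over all 20312 genes limma called 0% between the estrogens at 2 h, with 750 genes at an unadjusted p under 0.05.

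At 24 h, Krt86 was 2.53 ± 1.01 higher with E2 than with E3 and Krt87 2.63 ± 1.03 higher, with groups that overlapped because of E3 24 h replicate 2. Without that array the differences were 4.26 ± 0.25 and 4.39 ± 0.28, a ratio of 19.1 for Krt86, and the 3 E2 samples lay above both remaining E3 samples. Krt7 was 0.50 ± 0.41 higher with E2, and 1.09 ± 0.26 without that array. For Krt8, Krt18 and Krt19 the differences were 0.24 ± 0.26, -0.21 ± 0.20 and 0.40 ± 0.23, and without it 0.50 ± 0.25, -0.10 ± 0.22 and 0.61 ± 0.22. Of the 6, none was called with all arrays beside 15.7% of all genes (8.96% higher with E2 and 6.78% lower). Without that array 3 were called, but the share of all genes called in that fit is not given, so nothing is read from the change. The comparisons of E2 and E3 with vehicle share the 3 vehicle samples.

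Promoters of 3 of the 6 genes were found in the RefSeq table (build GRCm38.p6): Krt7 at chr15:101412153-101412452 (plus strand), Krt8 at chr15:102004293-102004592 (minus) and Krt18 at chr15:102027966-102028265 (plus). They are shown because Krt8 and Krt18 are neighbours whose levels moved together, with a correlation of 0.929 across the 15 arrays, while Krt7 had its own pattern. Each sequence runs from 250 bases before the start of the gene to 50 after it, and capitals mark GGTCA, the core site that estrogen receptors are known to bind as a palindrome.
Krt7: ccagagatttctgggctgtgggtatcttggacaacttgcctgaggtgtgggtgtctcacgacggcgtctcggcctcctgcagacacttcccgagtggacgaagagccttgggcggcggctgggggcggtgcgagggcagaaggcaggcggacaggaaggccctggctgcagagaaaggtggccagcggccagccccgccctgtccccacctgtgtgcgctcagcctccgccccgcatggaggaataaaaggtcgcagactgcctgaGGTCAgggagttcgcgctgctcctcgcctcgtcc
Krt8: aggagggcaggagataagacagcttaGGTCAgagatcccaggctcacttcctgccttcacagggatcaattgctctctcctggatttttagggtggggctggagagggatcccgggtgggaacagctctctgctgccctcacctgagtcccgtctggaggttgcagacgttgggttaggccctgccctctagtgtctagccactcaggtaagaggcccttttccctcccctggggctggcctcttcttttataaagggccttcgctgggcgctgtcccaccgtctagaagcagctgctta
Krt18: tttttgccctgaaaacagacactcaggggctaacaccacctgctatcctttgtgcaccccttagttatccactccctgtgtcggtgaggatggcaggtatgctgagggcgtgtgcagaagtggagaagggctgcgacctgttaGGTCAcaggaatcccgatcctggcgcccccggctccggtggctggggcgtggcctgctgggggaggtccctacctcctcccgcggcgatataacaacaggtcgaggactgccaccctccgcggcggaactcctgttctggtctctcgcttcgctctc
Each of the 3 held 1 GGTCA, searched on both strands, as did 40.5% of 32851 promoters of the same length with at least 1. The full estrogen response element, a palindrome of GGTCA around a spacer that any bases may fill, was in none of the 3 and in 0.07% of all promoters. The AP-1 motif TGANTCA was in none of the 3 and in 7.81% of all. The Sp1 motif GGGCGG occurred 4 times in Krt7 and not in Krt8 or Krt18, and was in 35.7% of all. A match describes letters in this window only.

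The neighbours of Krt86 and Krt87 among the hair keratins were tested as part of a list of 45 other keratins, of which 36 were on the array and 23 had enough signal. Krt85, a type II keratin of the hair matrix and cortex, rose by 8.44 ± 1.00 at 2 h of E2 (adjusted p = 4.3e-05) and by 8.49 ± 1.00 at 2 h of E3 (adjusted p = 3.9e-05). Its levels were -4.52, -4.40 and -4.88 with vehicle, 3.69, 3.89 and 3.95 at 2 h of E2, and 3.45, 4.05 and 4.18 at 2 h of E3. The E2 samples at 24 h had 0.39, -0.20 and 0.05, which was a rise of 4.68 ± 1.00 over vehicle (adjusted p = 0.0026). The E3 samples at 24 h had -3.26, 0.16 and -5.74, again with replicate 2 apart, and the difference from vehicle of 1.65 ± 1.00 (adjusted p = 0.25) became 0.10 without it (adjusted p = 0.92). The Krt85 probe shares at most 7 bases in a row with those of Krt86 and Krt87, and its level correlated with that of Krt86 at 0.990 over the 15 arrays. That correlation was computed over the same arrays that define the groups and has no test.

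Krt84, another type II hair keratin known from the tongue, rose by 2.74 ± 0.93 at 2 h of E2 (adjusted p = 0.034), by 2.74 ± 0.93 at 2 h of E3 (adjusted p = 0.033) and by 2.81 ± 0.93 at 24 h of E2 (adjusted p = 0.028). Its call was lost when single vehicle or treated arrays of these comparisons were left out, for example at 2 h of E2 without vehicle replicate 1 (adjusted p = 0.096). With normexp background correction the 3 differences were 1.01, 1.09 and 1.22, and none passed (adjusted p = 0.14, 0.12 and 0.076). On E3 24 h replicate 2 the Krt84 level was -1.86, against -6.28 and -6.43 in replicates 1 and 3, and the difference from vehicle was 2.07 with and 0.57 without it, neither passing the test. Of the 4 hair keratins tested, 2 rose at 2 h of E2, 2 rose and 1 fell at 2 h of E3, and 2 rose and 1 fell at 24 h of E2, beside 38.7%, 40.2% and 43.4% of all genes called. With E3 at 24 h, 1 fell, beside 20.4%.

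The hair keratin that fell was Krt35, a type I keratin of the hair cuticle and cortex. It fell by 1.96 ± 0.41 at 2 h of E3 (adjusted p = 0.0024) and by 1.32 ± 0.41 at 24 h of E3 (adjusted p = 0.042), or 1.66 ± 0.43 without replicate 2 (adjusted p = 0.033), and its probe was well above background on 1 of 3 arrays in each of these groups. The 24 h call was lost without replicate 3 (adjusted p = 0.077). At 24 h of E2 it was not well above background on any array and was at least 2.66-fold lower than vehicle (adjusted p = 0.0017). Such a bound sets the brighter group's mean against the lowest signal still well above background, or the dim probe's own signal where that is higher. With normexp background correction these Krt35 differences were -0.39, -0.04 and -0.27 and no longer passed the test (adjusted p = 0.15, 0.91 and 0.32). Among other type I hair keratins, the probes of Krt33a and Krt33b were well above background on 0 of 15 arrays, that of Krt34 on 1 and that of Krt31 on 3. Those of Krt32 and Krt36 were well above background on 7 and 14 arrays. Of these only Krt36 was tested, and it was not called in any comparison with vehicle. Hoxc13, a regulator of hair keratins in the follicle, was well above background on 0 of the 15 arrays, and filaggrin (Flg), a marker of epidermis, on 1, while loricrin (Lor) was on all 15. Of the 7 hair shaft markers tested, which include Krt85, 1 rose and 1 fell at 2 h of E2, and 2 rose and 2 fell at 2 h of E3. These counts stand beside 38.7% and 40.2% of all genes called. At 24 h, 1 rose and 3 fell with E2, beside 43.4%, and 1 rose and 3 fell with E3, beside 20.4%. The summed level of the 7 markers was 2.50 to 2.65 with vehicle, 15.3 to 17.7 at 2 h of E2, 13.2 to 20.5 at 2 h of E3, 2.99 to 3.26 at 24 h of E2 and 1.89 to 4.56 at 24 h of E3. Most of this sum at 2 h was Krt85 alone, at 12.9 to 15.5 with E2 and 10.9 to 18.1 with E3.

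**Figure D3:**
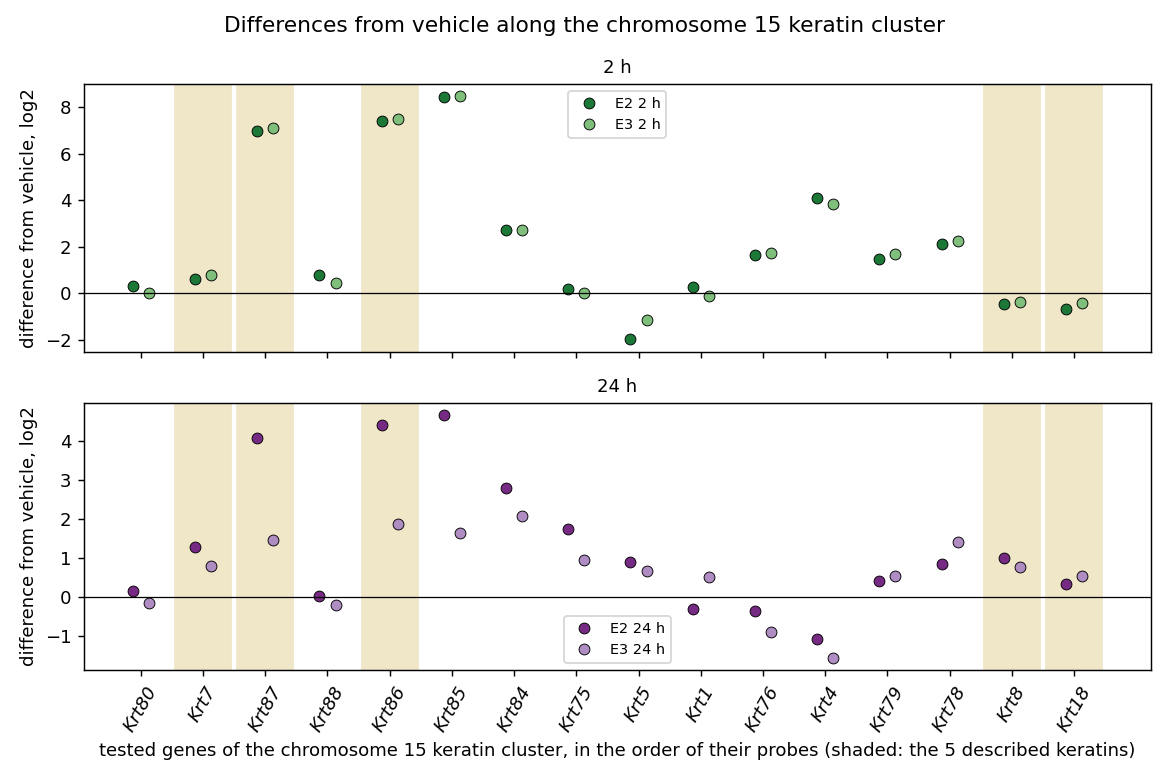
Difference from vehicle in log2 units of the tested genes of the chromosome 15 keratin cluster, in the order of their probes, at 2 h (top) and 24 h (bottom) of E2 and E3; shading marks 5 of the 6 keratins described here. Krt87, Krt86 and Krt85 stand 7 to 8.5 log2 units above vehicle at 2 h, while Krt88, which lies between Krt87 and Krt86, is at 0.78 and 0.43.

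Along the cluster, the probes with the largest differences at 2 h were near each other but did not form an unbroken run. Krt88, between Krt87 and Krt86, differed from vehicle by 0.78 and 0.43 at 2 h of E2 and E3, and was called higher with E2 only. Krt7, on the other side of Krt87, differed by 0.63 and 0.79. Krt80, beyond Krt7, and Krt75, the next tested gene after Krt84, differed by 0.32 and 0.17 with E2. Further along, Krt76, Krt4, Krt79 and Krt78 all rose at 2 h of both estrogens, and Krt8 and Krt18 follow directly after them with the small negative differences given above. Krt88 and this stretch were singled out after their values were seen.

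Of 13 stratified epithelial keratins tested, 5 rose and 1 fell at 2 h of E2, and 5 rose and none fell at 2 h of E3, where 38.7% and 40.2% of all genes were called and 15.5% and 16.6% were called higher. Krt4, a type II keratin of moist stratified epithelia, rose by 4.10 ± 0.50 at 2 h of E2 (adjusted p = 5.1e-05) and by 3.84 ± 0.50 at 2 h of E3 (adjusted p = 7.9e-05). These Krt4 differences were 2.50 and 2.28 with normexp, and still passed. It was not well above background on any array at 24 h of E3, where it was at least 1.92-fold lower than vehicle (adjusted p = 0.043), a call lost without replicate 2 (adjusted p = 0.12), without replicate 3 (adjusted p = 0.058) and with normexp (adjusted p = 0.59). Krt13, its type I partner, fell by 0.61 ± 0.19 at 2 h of E2 (adjusted p = 0.025) and was 0.69 ± 0.19 above vehicle at 24 h (adjusted p = 0.012). A second Krt13 probe gave -0.79 at 2 h and 1.51 at 24 h of E2 and passed at neither time (adjusted p = 0.43 and 0.11). Krt16, a type I keratin of stressed and growing epidermis, rose by 2.06 ± 0.65 at 24 h of E3 (adjusted p = 0.043), by 2.49 ± 0.70 without replicate 2 (adjusted p = 0.044), and by 0.97 without replicate 3 (adjusted p = 0.020). The calls of Krt13 and Krt16 were lost when single arrays were left out, for example Krt13 at 2 h without vehicle replicate 2 (adjusted p = 0.059), Krt13 at 24 h without E2 24 h replicate 2 (adjusted p = 0.056) and Krt16 without vehicle replicate 1 (adjusted p = 0.13). Krt222, a keratin-like gene, was not well above background at 2 h of E3 and was at least 1.71-fold lower than vehicle (adjusted p = 0.036), a call lost with normexp (adjusted p = 0.63) and without E3 2 h replicate 3 (adjusted p = 0.16).

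Over all 23 other keratins tested, 7 rose and 1 fell at 2 h of E2, and 8 rose and 2 fell at 2 h of E3, beside 38.7% and 40.2% of all genes called. At 24 h of E2, 3 were called higher and 1 lower, and at 24 h of E3, 1 higher and 2 lower, or 1 higher and 1 lower without replicate 2. All genes called were 43.4% and 20.4% at that time with all arrays. Their median difference from vehicle was 0.27 and 0.00 at 2 h of E2 and E3, beside -0.14 and -0.16 over all genes, and 0.36 with each estrogen at 24 h beside -0.02 and 0.00. The basal keratin Krt5, a marker of stratified epithelium, ranged widely within groups, from -4.34 to 2.76 among the 3 E2 24 h samples, and its part in the levels of other stratified keratins was not tested.

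**Figure D4:**
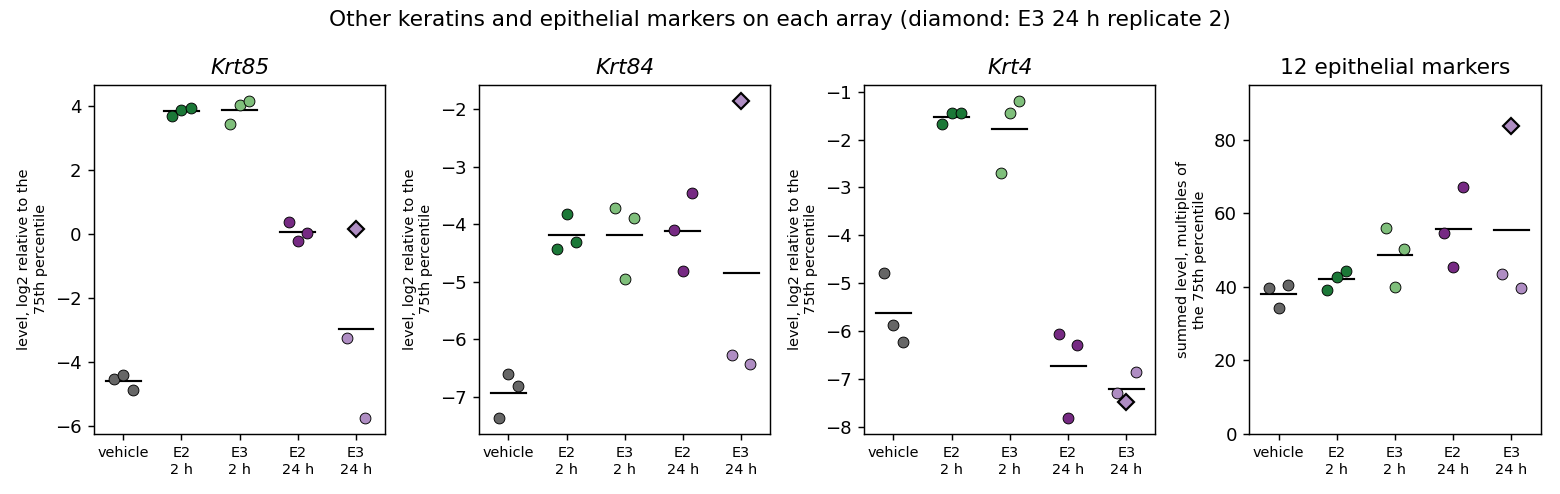
Levels of Krt85, Krt84 and Krt4 on each array, as log2 relative to the 75th percentile, and the summed level of 12 epithelial markers in multiples of that percentile; points are arrays, lines are means of 3 and the diamond is E3 24 h replicate 2. The diamond is at 83.7 in the epithelial sum, and in Krt85 and Krt84 it lies above the other 2 arrays of its group but not in Krt4.

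Genes of desmosomes and hemidesmosomes, plakins and other keratin-associated genes formed a list of 25 partner genes, of which 20 were tested. At 2 h of E2, 3 rose and 3 fell, and at 2 h of E3, 3 rose and 1 fell, beside 38.7% and 40.2% of all genes called. The desmosomal cadherin Dsc2 rose by 1.96 ± 0.26 and 2.09 ± 0.26 with E2 and E3 (adjusted p = 1.1e-04 and 6.3e-05). Plakoglobin, Jup, which links desmosomal cadherins to desmoplakin, rose by 1.04 ± 0.15 and 1.15 ± 0.15 (adjusted p = 2.3e-04 and 1.0e-04). The hemidesmosome integrin Itga6 rose by 0.79 ± 0.22 and 0.89 ± 0.22 (adjusted p = 0.014 and 0.0073). Trim29, which is known to interact with keratins, fell by 2.02 ± 0.66 and 1.90 ± 0.66 (adjusted p = 0.029 and 0.036), and by 0.95 and 0.77 with normexp. The Trim29 call with E3 was lost with quantile normalization (adjusted p = 0.069), and that with E2 without E2 2 h replicate 2 (adjusted p = 0.13). Itgb4, the partner of Itga6, and the keratin-binding protein trichoplein, Tchp, fell with E2 by 0.42 ± 0.15 and 0.38 ± 0.11 (adjusted p = 0.038 and 0.018), and neither passed when arrays were scaled to their medians (adjusted p = 0.28 and 0.27).

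At 24 h of E2, 4 partner genes rose and 1 fell, and at 24 h of E3 none rose and 1 fell, with 6 of the 20 at an unadjusted p under 0.05. All genes called in these comparisons were 43.4% and 20.4%. Krtcap2 rose by 0.81 ± 0.14 (adjusted p = 6.8e-04, and 0.50 with quantile normalization), the desmosomal plakophilin Pkp3 by 0.73 ± 0.21 (adjusted p = 0.013) and desmoplakin, Dsp, which ties keratin filaments to the desmosome, by 0.60 ± 0.21 (adjusted p = 0.036), all with E2. Other Dsp probes gave 0.39 and 0.34 there and did not pass (adjusted p = 0.20 and 0.39). Dystonin, Dst, a linker of keratins to the hemidesmosome, fell by 1.26 ± 0.16 with E2 and 0.73 ± 0.16 with E3 (adjusted p = 9.4e-05 and 0.011), and with E3 by 0.60 ± 0.15 without replicate 2 (adjusted p = 0.034). Single Dst probes ranged from -1.84 to -0.01 with E2, and the mean over probes did not pass with either (adjusted p = 0.064 and 0.17). The median over the 20 partner genes was -0.16 and -0.18 at 2 h of E2 and E3, close to the median of all genes, and 0.31 and 0.29 at 24 h.

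Across the 15 arrays, the named genes whose levels followed Krt86 most closely were Ramp3, Pno1, Mboat2, Pus1 and Timm8a1, with Pearson correlations of 0.983 to 0.974. For Krt8 they were Paox, Gsto1, Bicdl2, Cndp2 and Tspan1, with 0.980 to 0.970. Leaving out E3 24 h replicate 2 changed these values to between 0.976 and 0.985 for Krt86 and between 0.962 and 0.977 for Krt8. Among the 6 keratins, Krt8 correlated with Krt19 at 0.974 and with Krt18 at 0.929, and Krt86 with Krt8 at -0.32. These are descriptions over 15 arrays that share 5 groups and 1 scale.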

How the data were processed

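Total RNA of 15 uterine samples was labelled with Cy3 and hybridised to one-colour arrays, and the deposited files hold 1 fluorescence intensity per spot, extracted with Agilent Feature Extraction 9.5.3.1 per the file headers, with probe positions on mm7. The deposited series value table equals the processed intensity of these files and adds no alternative. The log2 intensity as deposited was taken minus the log2 of the 75th percentile of the array over non-control probes, and outlier spots were left out. A gene is its probe with the highest mean, tested where any group had it well above background throughout (20312 genes). All 15 arrays were fitted together in limma 3.58.1 (R 4.3.3), with Benjamini-Hochberg adjustment in each of 8 comparisons and a call at an adjusted p under 0.05. The number of arrays limits the precision. Gene names came from the files and a RefSeq table, matched by accession or symbol, and promoter sequences are from RefSeq GRCm38.p6.

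The keratins and gene lists were chosen with earlier results of these data known. Besides the 6 keratins, the genes named are, in each comparison with vehicle, up to 3 largest rises and 3 largest falls among called other keratins and partners, the 5 genes most correlated with Krt86 and with Krt8, and defining markers. Alternatives were quantile, median and normexp processing, other filters and probe rules, slide, scan day and replicate blocks, and leaving out each array. The fitting code was tested on simulated data.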

Additional observations from a re-analysis of the deposited data

Results flagged for a closer look

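In these genes the level after an estrogen differed between 2 and 24 h, by the test of 24 h minus 2 h (limma, adjusted p under 0.05), unless stated. There was no vehicle group for each time, so time alone and the estrogen cannot be told apart in these differences. Log2 differences are given for E2 and then E3. Krt85 was lower at 24 h than at 2 h (-3.76 and -6.84), as were Krt4 (-5.20 and -5.42), Dsc2 (-1.29 and -1.68), Jup (-0.75 and -0.92) and Dst (-1.14 and -0.41). Krt4 was not well above background on any E3 24 h array, and its bound there is at least 27.6-fold lower. Higher at 24 h were Krt13 (1.30 and 1.01), Dsp (0.94 and 0.76), Itgb4 (0.54 and 0.65), Krtcap2 (0.94 and 0.48) and Pkp3 (1.08 and 0.75). A second Krt13 probe gave 2.30 with E2 (adjusted p = 0.019) but -0.06 with E3 (adjusted p = 0.96), so the E3 change of Krt13 rests on 1 probe. Krt222 also passed (fitted values 1.74 and 1.78), but it was not well above background on any 2 h array, and only bounds can be stated, at least 2.79-fold and 2.18-fold higher at 24 h. Krt35 passed with E2 (fitted value -1.18), but it was not well above background on any E2 24 h array, and the bound is at least 1.43-fold lower. Krt16 (1.75) and Trim29 (2.43) passed with E3. Without E3 24 h replicate 2, Dst no longer passed with E3 (-0.27, adjusted p = 0.16), and the other genes given here for E3 still did. Whether E2 and E3 differ in these changes over time was not tested. Krt8 with E2 lay below vehicle in all 3 samples at 2 h and above it in all 3 at 24 h, a difference of 1.46 that is given untested because the gene was chosen on these levels.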

How the results depend on the processing

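With 3 arrays a group and vehicle alone on its slide, the calls on E3 at 24 h were the least stable, and E3 24 h replicate 2 decided the size of the Krt86, Krt87 and Krt7 differences there. Under normexp, the lowest of the background and scale alternatives, the differences at 2 h were 6.26 (E2) and 6.36 (E3) for Krt86 and 6.08 and 6.20 for Krt87. Under quantile normalization the E2 24 h differences of Krt8 and Krt19 were 0.50 and 0.72. A fixed slide block among treated arrays rests the E3 24 h level on replicate 2, the only array of that group that shares a slide with another group, and turned E2 minus E3 at 24 h to -1.23 for Krt86, -1.53 for Krt87 and -1.32 for Krt7. Scaling to array medians moved the median of all genes at 2 h with E2 from -0.14 to 0.04, with E3 from -0.16 to 0.08, and at 24 h of E2 from -0.02 to 0.20. The split of all genes called at 24 h of E2 was then 6192 higher and 3027 lower, against 4280 and 4538.

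Counts called by limma are given below where they differed by over 1.5 times, and the cause was not tested. At 2 h of E2, 5 of the 6 keratins instead of 3 were called with only the 2 groups compared, and 4 other keratins instead of 8 when every array had to be well above background. At 2 h of E3, the latter gave 4 other keratins instead of 10, and normexp 6. With E2 at 24 h, quantile normalization left 3 of the 6 keratins instead of 5, normexp 2 other keratins instead of 4, and only the groups compared 7. Partner genes there were 9 with median scaling, 3 with the mean of a gene's probes and 8 with only the groups compared, instead of 5. At 24 h of E3, the 1 keratin called became 0 with quantile normalization, no filter, only the groups compared, slide as a random block, scan day as a block and the first scan day alone, 2 with the mean of a gene's probes and 3 with median scaling. The 3 other keratins became 1 with normexp and on the first scan day alone, and 0 with no filter, only the groups compared and the random slide block. The 1 partner gene became 4 with median scaling, 3 with every array above background, and 0 with only the groups compared and on the first scan day alone. For E2 minus E3 at 24 h, the 6 keratins gave 2 calls with scan day as a block and 3 on the first scan day alone, instead of 0. The 1 other keratin became 2 with normexp and scan day as a block, 3 with every array above background and on the first scan day alone, and 0 in the other alternatives that changed it. The 1 partner gene became 2 with normexp and with every array above background, and 0 in the others that changed it. Over time with E2, scan day as a block gave 3 of the 6 keratins instead of 5, and every array above background 4 other keratins instead of 9. Over time with E3, the fixed slide block gave 0 in all 3 lists, and only the groups compared 5 partner genes instead of 10. Reversed were Krt35 from 2 to 24 h of E2 under normexp (0.0056, adjusted p = 0.98) and Trim29 from 2 to 24 h of E3 with the fixed slide block (-0.19, adjusted p = 0.97).

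Leaving out 1 array gave 2 to 4 of the 6 keratins, 5 (vehicle replicate 3) to 10 other keratins and 2 (E2 2 h replicate 3) to 7 partner genes at 2 h of E2. Partner genes at 24 h of E2 ranged from 3 (vehicle replicate 2) to 8 (E3 24 h replicate 2). At 24 h of E3, the 6 keratins gave 0 (vehicle replicate 1 or 2, E2 2 h replicate 3 or E3 24 h replicate 2) to 2 (E3 2 h replicate 2 or E3 24 h replicate 3). Other keratins gave 0 (vehicle replicate 1 or 2 or E3 2 h replicate 2) to 3, and partner genes 1 to 3 (E3 24 h replicate 1 or 3). For E2 minus E3 at 24 h each list gave 0 to 3, with 3 without E3 24 h replicate 2, a fit for which the share of all genes called is not given. From 2 to 24 h of E2, 3 to 6 of the 6 keratins were called, with 3 without any E2 2 h array or without E2 24 h replicate 2 or 3.

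Samples of the same replicate number did not deviate together (correlations of -0.22 to 0.21 over 30 pairs, median -0.02). The labels state no pairing, and this check cannot exclude that samples of the same number were handled together. With the replicate number as a block, the 1 partner gene called for E2 minus E3 at 24 h became 0, and the other counts stayed within 1.5 times.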
